A study of Mus musculus with 20 samples.

Results

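The DNA methylation and demethylation enzymes described here are the 8 mouse genes Tet1, Tet2, Tet3, Dnmt1, Dnmt3a, Dnmt3b, Dnmt3l and Uhrf1. They were taken by symbol from the 37991 Ensembl gene IDs in the count tables, and all 8 passed the filter on low counts in every comparison. Their RNA was counted in embryonic stem cells (ESCs, strain label C57BL/6) in which Cnot3, which encodes part of the CCR4-NOT deadenylase, can be deleted. The 20 RNA-seq libraries formed 10 groups of 2 biological replicates. KO cells received 0.1 µM 4-hydroxytamoxifen (4OHT) to delete Cnot3, and WT cells received DMSO. Total RNA and polysome-associated RNA were collected from KO and WT on day 3. On day 2, other KO and WT cells received the transcription inhibitor actinomycin D at 10 µg/ml, and total RNA was collected after 0, 4 and 8 h. All groups but the WT groups of day 3 carry the source label of the Cnot3 conditional line. The WT total and WT polysome libraries carry the label E14Tg2a instead, so on day 3 a difference between cell lines and the deletion cannot be told apart. The sources used here do not say how many clones the conditional line comprises.

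DNA methylation at CpG sites is copied onto the new strand after replication by Dnmt1, which Uhrf1 brings to hemimethylated DNA. Dnmt3a and Dnmt3b methylate unmethylated sites de novo, and Dnmt3l, which lacks catalytic activity, binds and stimulates them in ESCs and germ cells. The TET dioxygenases oxidise 5-methylcytosine as a step towards its removal. Tet1 and Tet2 are known as the TET enzymes of ESCs, while Tet3 is known for its role in the zygote. CCR4-NOT shortens poly(A) tails and is brought to mRNAs by, among others, Pumilio proteins at TGTANATA elements, AU-rich element binding proteins at ATTTA pentamers, and microRNAs through their seed, bases 2 to 8.

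The 3′ untranslated regions (3′UTRs) of the TET mRNAs differed from those of most DNMT mRNAs in length and in the number of these elements. Over all genes, such elements were commoner in longer 3′UTRs. In the GENCODE M21 transcript with the longest coding sequence, the 3′UTR had 7955 bases in Tet1, 2898 in Tet2, 5669 in Tet3, 6696 in Dnmt3a, 1327 in Dnmt3b, 984 in Uhrf1, 312 in Dnmt1 and 273 in Dnmt3l, against a median of 820 over 19740 genes. The mature sequences of mmu-miR-294-3p, whose seed is shared by an abundant ESC microRNA cluster, and of mmu-miR-29a-3p (RefSeq, GRCm38.p6) are shown with the seed in capitals, because their sites fell mostly in the TET mRNAs.
mmu-miR-294-3p: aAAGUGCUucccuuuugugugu
mmu-miR-29a-3p: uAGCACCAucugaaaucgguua

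The following stretches of 3′UTR, on the mRNA strand and with the searched motif in capitals, are examples of the elements counted here in the mRNAs of the TET genes, Dnmt3a and Dnmt3b. They are a selection, and not all sites are shown. Whether they bear on the loss of these mRNAs was not tested. Positions count from the first base after the stop codon. The capitals spell a Pumilio element (TGTANATA), a match to the seed of mmu-miR-294-3p (AGCACTT) or a match to the seed of mmu-miR-29a-3p (TGGTGCT). In Tet1 and Tet3 the first 2 sites listed lie within a short stretch of one another. This nearness reflects the selection in Tet3, where an earlier mmu-miR-294-3p match at 192 to 198 is not shown.
Tet1 624 to 631: taactataaaTGTATATAttttaaaaag
Tet1 640 to 646: tattttaaaaAGCACTTtctactttta
Tet3 1800 to 1807: tggttttaacTGTAAATAgtgaaagatt
Tet3 1824 to 1830: gatttttttaAGCACTTttgcctagat
Tet2 1552 to 1559: tatacatatgTGTATATAtatattatat
Tet2 816 to 822: gtcttagaaaAGCACTTtgcctaccta
Tet1 316 to 322: ccatagagtcTGGTGCTttcccccggg
Tet2 398 to 404: caggatcatcTGGTGCTgacgtatgat
Tet3 51 to 57: agctgctctgTGGTGCTtttgccctca
Dnmt3a 825 to 831: gacttcataaTGGTGCTttcaaaacag
Dnmt3b 228 to 234: tagcccggcaTGGTGCTcatgttctct
Dnmt3a 1905 to 1912: atggatggagTGTAGATAtgtggcatat

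Only the mRNA strand was searched, since these elements act in the RNA, and no match to one of these 3 motifs overlapped a match to another. Pumilio elements numbered 3 in Tet1, 1 in Tet2, 3 in Tet3 and 1 in Dnmt3a, and there was no match in the 3′UTRs of Dnmt1, Dnmt3b, Dnmt3l and Uhrf1. Of genes with a 3′UTR within 20% of that of Tet1, 75.9% held at least 1 such element, as did 67.7% for Tet3, 43.8% for Tet2 and 73.7% for Dnmt3a. The share was 7.37% for Dnmt1, 26.2% for Dnmt3b, 6.5% for Dnmt3l and 19.4% for Uhrf1. Most genes of their length thus lacked it too. The match to the seed of mmu-miR-294-3p occurred 2 times in Tet1, 1 time in Tet2 and 3 times in Tet3, and had no match in the 5 other 3′UTRs. Its share among genes of like 3′UTR length was 60.5% for Tet1, 29.6% for Tet2, 53.0% for Tet3 and 57.8% for Dnmt3a. For Dnmt1, Dnmt3b, Dnmt3l and Uhrf1 it was 3.5%, 14.3%, 2.9% and 10.0%. The match to the seed of mmu-miR-29a-3p occurred 7 times in Tet1, 5 times in Tet2, 8 times in Tet3, 5 times in Dnmt3a and 1 time in Dnmt3b. Among genes of like length, the share with any such match was 51.4% for Tet1, 25.5% for Tet2, 43.5% for Tet3, 48.1% for Dnmt3a and 12.2% for Dnmt3b, and the median number was 1 for Tet1 and 0 for the other 4. ATTTA occurred 10 times in Tet1, 4 in Tet2, 17 in Tet3, 3 in Dnmt3a and 2 in Uhrf1, against medians of 15, 5, 10, 12 and 1 in genes of like length. It had no match in Dnmt1, Dnmt3b and Dnmt3l, where 37.3%, 82.8% and 34.95% of genes of like length held it. These matches are a description of the letters in these windows. Dnmt3a, whose 3′UTR is of TET length, had as many mmu-miR-29a-3p matches as Tet2 and fewer ATTTA pentamers than the median of its length class. Over all 3′UTRs, 21.96% held a Pumilio element, 13.41% a mmu-miR-294-3p match, 11.94% a mmu-miR-29a-3p match and 62.25% an ATTTA pentamer.

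Gene positions are those of GENCODE M21 on GRCm38, while the reads were aligned to mm9. Tet1 (ENSMUSG00000047146) lies on chromosome 10 from 62804570 to 62908996 on the minus strand, and Tet2 (ENSMUSG00000040943) on chromosome 3 from 133463679 to 133545139 on the minus strand. Tet3 (ENSMUSG00000034832) lies on chromosome 6 from 83362373 to 83459084 on the minus strand, and Dnmt1 (ENSMUSG00000004099) on chromosome 9 from 20907209 to 20959888 on the minus strand. Dnmt3a (ENSMUSG00000020661) spans 3806007 to 3914443 on chromosome 12, and Dnmt3b (ENSMUSG00000027478) spans 153649450 to 153687730 on chromosome 2, both on the plus strand. Dnmt3l (ENSMUSG00000000730) spans 78041947 to 78063622 on chromosome 10, and Uhrf1 (ENSMUSG00000001228) spans 56303321 to 56323486 on chromosome 17, both on the plus strand. The sources used here do not state whether counting used strand, so reads from 133 exon bases that Dnmt3a shares with Dnmt3aos and 67 that Dnmt3l shares with Aire, 0.799% and 2.24% of their exon bases, cannot be told apart. The other 6 genes share no exon base with another counted gene.

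Total libraries held 27664391 to 35170012 gene counts, polysome libraries 13832829 to 16688555 and libraries of the actinomycin D series 14513891 to 33262905. The replicates of WT polysomes differed most, with a chi-square per degree of freedom of 77.0, against 1.29 to 12.8 in the other 9 groups. Cnot3 itself fell to 7.72 ± 0.562 CPM in KO total RNA, against 46.6 ± 0.659 CPM in WT (SD, n = 2 each), where CPM is the read count scaled to a common library size by TMM. At 0 h on day 2 Cnot3 was at 11.6 ± 0.374 CPM in KO and 107.9 ± 1.28 CPM in WT. The 8 ESC markers summed to 2456 to 2540 CPM in KO total libraries and 3873 to 4043 CPM in WT, and 5 of the 8 fell. The 8 trophectoderm markers summed to 506.9 to 528.8 CPM in KO and 103.7 to 116 CPM in WT, with 6 of 8 higher. Of the primitive endoderm markers 1 of 8 was higher. Of the feeder fibroblast markers 6 of the 7 tested were higher, with sums of 51.3 to 56.9 CPM in KO and 29.2 to 31.7 CPM in WT. Of the 6 neuroectoderm markers tested 1 was higher and 3 lower. Over all 18303 genes tested, 16.0% were higher and 12.2% lower in total RNA, so the primitive endoderm count was near the share of all genes. No marker found in the files was at 0 reads in both libraries of a total group. At 0 h on day 2 the trophectoderm sum was 80.1 to 83.2 CPM in KO and 34.1 to 39.6 CPM in WT. Of the 8 ESC markers 6 were then lower and 1 higher, where 32.9% of all genes tested were lower and 29.8% higher. The feeder markers Col3a1 and Lum were at 0 reads in KO at 0 h, and Lum also in WT. The part of these markers in the results on the methylation enzymes was not tested. In such bulk samples, fewer cells of a type and less RNA per cell cannot be told apart.

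Per kilobase of exon, Dnmt3l had the highest level of the 8 genes and Tet3 the lowest in all 10 groups. In KO total RNA the order of levels was Dnmt3l at 117.2 ± 0.514, Uhrf1 at 75.9 ± 1.71, Dnmt1 at 57.6 ± 0.781, Dnmt3b at 31.8 ± 0.686, Tet1 at 13.1 ± 1.72, Dnmt3a at 6.46 ± 0.365, Tet2 at 5.95 ± 0.343 and Tet3 at 0.618 ± 0.102 CPM per kb (SD, n = 2). In WT total RNA it was Dnmt3l at 227.6 ± 1.89, Uhrf1 at 100.4 ± 2.41, Dnmt3b at 79.3 ± 5.34, Dnmt1 at 71.8 ± 0.612, Tet1 at 37.4 ± 0.025, Tet2 at 14.8 ± 0.286, Dnmt3a at 8.71 ± 0.0691 and Tet3 at 0.803 ± 0.00633 CPM per kb (SD, n = 2). By this measure, Dnmt1 stood above Dnmt3b, and Dnmt3a above Tet2, in day 3 total RNA of KO but not of WT. Both switches rest on the exon length used, which for these genes exceeds that of the transcript with the longest coding sequence. Divided by the length of that transcript, mean CPM puts Dnmt1 above Dnmt3b in WT as well. It does not put Dnmt3a above Tet2 in KO. By exon length, the WT groups of day 2 also differed from WT total RNA of day 3. Dnmt1 was above Dnmt3b at 0 h (78.8 and 62.0 CPM per kb). Dnmt3a was above Tet2 at 4 h (12.6 and 5.49 CPM per kb) and 8 h (14.7 and 7.39 CPM per kb). Neighbours in this order whose libraries overlapped were Dnmt1 and Dnmt3b, and Dnmt3a and Tet2, in KO polysomes, Uhrf1 and Dnmt3b, and Dnmt3b and Dnmt1, in WT polysomes, Tet2 and Dnmt3a in WT at 0 h, and Dnmt1 and Dnmt3b in WT at 4 h. The non-catalytic Dnmt3l thus stood far above the catalytic Dnmt3a in both arms.

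**Figure D1:**
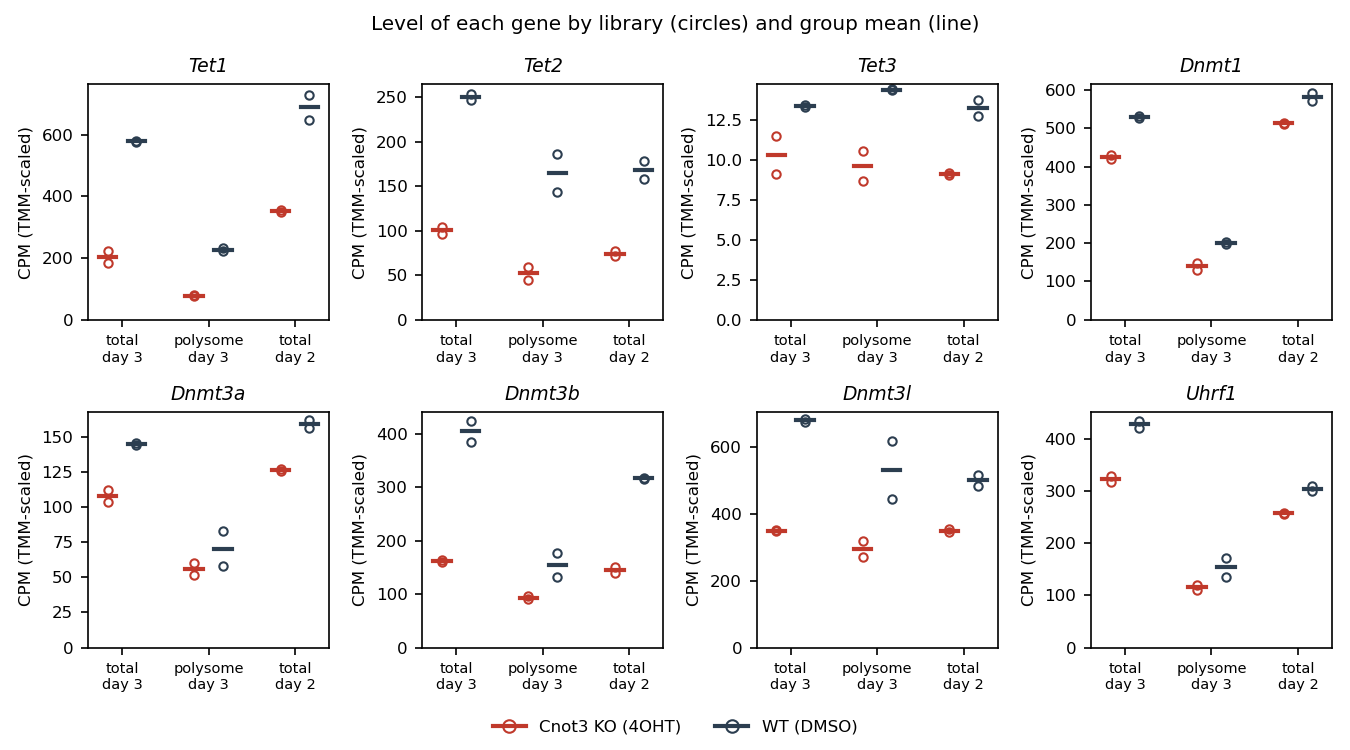
Level of each of the 8 genes in TMM-scaled CPM (y axes, from 0) on day 3 in total and polysome RNA and on day 2 at 0 h; circles are the 2 libraries of each group and lines their means, with KO left of WT. In all 8 panels the KO libraries lie below the WT libraries, except for Dnmt3a in polysomes, where they overlap. The share of all genes with such a separation was not computed.

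The comparison of total RNA on day 3 asked how deletion of Cnot3 changed mRNA levels. Of the 8 enzymes, 4 fell and none rose: the dioxygenases Tet1 and Tet2, the de novo methyltransferase Dnmt3b and its cofactor Dnmt3l. Over all 18303 genes tested, 12.2% were lower and 16.0% higher by the same test, edgeR's quasi-likelihood test at a Benjamini-Hochberg adjusted p under 0.05. The median log2 change of the 8 enzymes was -0.69, against 0.01 over all genes tested.

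Tet1 had 184 and 222 CPM in the KO total libraries, against 577.9 and 577.3 CPM in the WT libraries. This is a log2 change of -1.51 ± 0.16 (standard error of the fit; edgeR adjusted p = 0.00022), and 0.792% of the genes tested had a lower log2 change. Tet2 had 96.4 and 104 CPM in KO, against 246.7 and 253.5 CPM in WT, a log2 change of -1.32 ± 0.18 (edgeR adjusted p = 0.000797). Both KO libraries lay below both WT libraries for either gene. Tet3, the least abundant, had 9.1 and 11.5 CPM in KO, from 249 and 339 reads, against 13.5 and 13.3 CPM in WT. Its log2 change of -0.38 ± 0.17 did not pass the test (edgeR adjusted p = 0.124).

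Dnmt3b had 159.7 and 164.6 CPM in KO total libraries, against 385.6 and 424.2 CPM in WT. Its log2 change was -1.32 ± 0.17 (edgeR adjusted p = 0.000562). Dnmt3l had 351.4 and 349.2 CPM in KO, against 676.2 and 684.2 CPM in WT, a log2 change of -0.96 ± 0.19 (edgeR adjusted p = 0.0049). Neither gene's KO libraries came near its WT libraries, and KO retained 40.0% of the WT mean of Dnmt3b and 51.5% of that of Dnmt3l. Dnmt3a, the other de novo enzyme, had 103 and 112 CPM in KO, against 145.7 and 144.1 CPM in WT, with a log2 change of -0.43 ± 0.17 (edgeR adjusted p = 0.0867).

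Neither gene of the maintenance pair passed the test in total RNA. Dnmt1 had 420.9 and 429.1 CPM in KO total libraries, against 533.1 and 526.8 CPM in WT, with a log2 change of -0.32 ± 0.15 (edgeR adjusted p = 0.13). Uhrf1 had 317.9 and 328.2 CPM in KO, against 420.5 and 435.0 CPM in WT, with a log2 change of -0.40 ± 0.16 (edgeR adjusted p = 0.0785). The libraries of the groups did not overlap for Dnmt1, Uhrf1, Dnmt3a or Tet3 either. The share of all genes whose groups separate in this way was not computed, so with 2 libraries a group this adds little to the test. Without both WT polysome libraries, or with only the 4 total libraries, all 8 genes passed the test. These fits also called more of the other DNA methylation genes. With only the 4 total libraries, 5 of 7 maintenance and replication partners were lower and 2 higher, against 0 of either in the main fit. The share of all genes called in these fits is not given here, so the 8 cannot be set against it. The calls on Tet1, Tet2, Dnmt3b and Dnmt3l held in all 17 alternative fits. Among all genes called in total RNA, 85.1% were higher with library totals, against 56.9% under TMM.

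**Figure D2:**
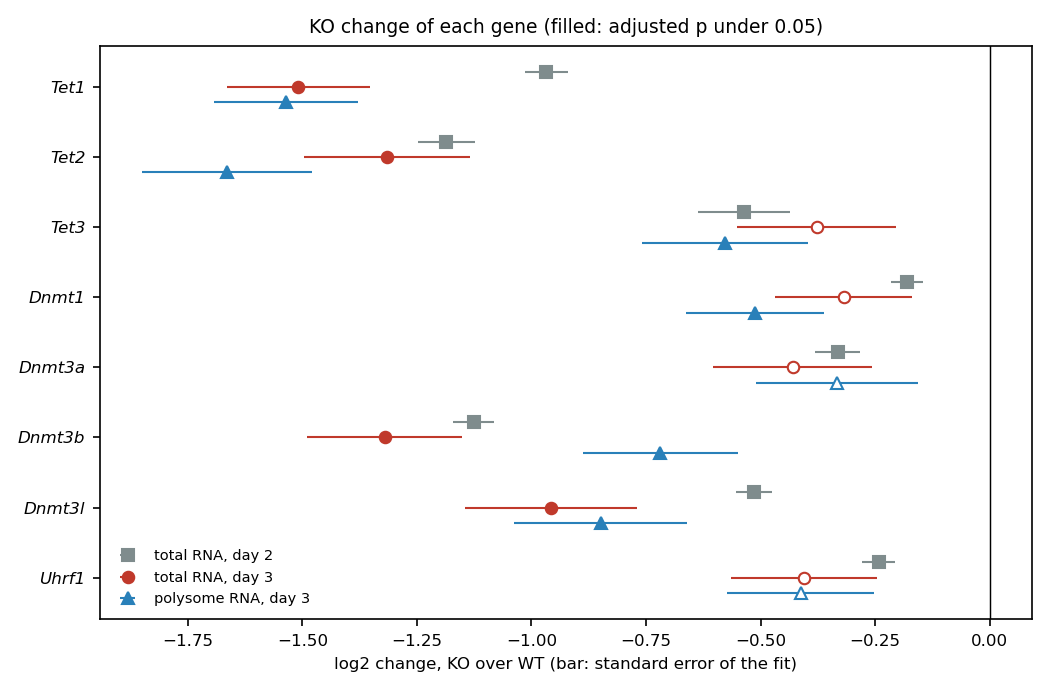
Log2 change of KO over WT (x axis) of each gene on day 2 at 0 h (squares), on day 3 in total RNA (circles) and on day 3 in polysome RNA (triangles), with the standard error of the fit as a bar and filled symbols for an adjusted p under 0.05. All 24 values lie below 0 under TMM, with Tet1, Tet2 and Dnmt3b farthest from it in total RNA. The median of all genes was 0.01 in total RNA, -0.08 in polysomes and -0.01 on day 2. The share of all genes below 0 was not computed. With ribosomal protein or mitochondrial scaling, Dnmt1, Dnmt3a and Uhrf1 lay above 0 on day 2.

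Polysome-associated RNA on day 3 was compared to learn what the cells had on ribosomes. Of the 8 enzymes 6 fell, Tet1, Tet2, Tet3, Dnmt1, Dnmt3b and Dnmt3l, and none rose, where 21.1% of the 18303 genes tested fell and 15.9% rose. Their median log2 change was -0.65, against -0.08 over all genes. Tet2 had 44.5 and 59.3 CPM in KO polysomes, against 143 and 186 CPM in WT polysomes (log2 change -1.66 ± 0.18, edgeR adjusted p = 0.000142). Tet1 had 76.4 and 80.4 CPM in KO, against 232.6 and 221.8 CPM in WT (log2 change -1.54 ± 0.16, edgeR adjusted p = 9.78e-05). Of the 6 calls, these 2 held in all 16 alternative fits.

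Dnmt3l had 318.3 and 271.2 CPM in KO polysomes, against 618.1 and 443.6 CPM in WT (log2 change -0.85 ± 0.19, edgeR adjusted p = 0.00584). Dnmt3b had 96.0 and 91.0 CPM in KO, against 176 and 131 CPM in WT (log2 change -0.72 ± 0.17, edgeR adjusted p = 0.00781). Tet3 at -0.58 ± 0.18 (edgeR adjusted p = 0.0288) and Dnmt1 at -0.51 ± 0.15 (edgeR adjusted p = 0.0215) lost their calls in 9 of 16 alternative fits each. Without polysome KO replicate 1 the count was 3, without polysome KO replicate 2 it was 2, and without any 1 of the 4 total libraries it was 4. Dnmt3a, with 60.1 and 51.5 CPM in KO and 82.9 and 57.9 CPM in WT, overlapped between the groups (log2 change -0.33 ± 0.18, edgeR adjusted p = 0.163). Uhrf1 at -0.41 ± 0.16 (edgeR adjusted p = 0.0652) did not pass either. Leaving out 1 library moved the log2 change over -0.56 to -0.059 for Dnmt3a and -0.56 to -0.24 for Uhrf1. The mitochondrial mRNA share of the polysome libraries ranged over 0.912% to 5.02%, the highest value being that of WT replicate 2. The trophectoderm markers summed to 326 to 783.8 CPM in KO polysomes and 56.5 to 75.4 CPM in WT polysomes, and their part was not tested. Among polysome calls over all genes, 69.5% were higher with library totals, against 42.9% under TMM.

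Polysome association, the KO change in polysomes minus that in total RNA, changed for 0 of the 8 enzymes by edgeR's quasi-likelihood test and for 0 by DESeq2. Over all 18303 genes, 0.00546% were called in each direction, so the comparison called almost nothing. At an unadjusted p under 0.05 there was 1 member, Dnmt3b, with a difference of 0.60 ± 0.24 (edgeR adjusted p = 0.356). It passed without polysome WT replicate 1, at 0.85 with an edgeR adjusted p of 0.000848. The largest negative value was that of Tet2 at -0.35 ± 0.25 (edgeR adjusted p = 0.582).

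On day 2, before actinomycin D had acted, all 8 enzymes were already lower in KO, where 32.9% of 15823 genes tested were lower and 29.8% higher. The median log2 change was -0.52, against -0.01 over all genes. These 12 libraries all carry the label of the conditional line. Tet2 had 71.1 and 76.7 CPM in KO, against 178.0 and 158 CPM in WT, a log2 change of -1.19 ± 0.06 (edgeR adjusted p = 6.82e-15). Dnmt3b had 139 and 151 CPM in KO, against 318.6 and 314.8 CPM in WT, a log2 change of -1.13 ± 0.04 (edgeR adjusted p = 5.21e-22). Tet1 had 349.3 and 354.0 CPM in KO, against 729.4 and 646.8 CPM in WT, a log2 change of -0.97 ± 0.05 (edgeR adjusted p = 2.14e-16). These 3 were again the farthest from WT, at 44.0%, 45.8% and 51.1% of the WT means.

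The other changes on day 2 were smaller. Tet3 changed by -0.54 ± 0.10, Dnmt3l by -0.51 ± 0.04, Dnmt3a by -0.33 ± 0.05, Uhrf1 by -0.24 ± 0.04 and Dnmt1 by -0.18 ± 0.04 on the log2 scale (edgeR adjusted p = 1.42e-05 for Tet3, 2.93e-14 for Dnmt3l, 6.08e-07 for Dnmt3a, 3.68e-07 for Uhrf1 and 3.14e-05 for Dnmt1). No group of these libraries overlapped its counterpart, and the share of all genes with such a separation was not computed. Scaling to ribosomal protein mRNAs moved the median change of all genes to 0.41, and scaling to mitochondrial mRNAs moved it to 0.47. Under these scalings Dnmt1 was at 0.24 and 0.32, Dnmt3a at 0.092 and 0.17, and Uhrf1 at 0.18 and 0.25. With ribosomal protein scaling Dnmt1 and Uhrf1 were thus called higher in KO (edgeR adjusted p = 7.07e-08 and 4.07e-05), while Dnmt3a did not pass (edgeR adjusted p = 0.0759). With mitochondrial scaling Dnmt1, Dnmt3a and Uhrf1 did not pass (edgeR adjusted p = 0.247, 0.569 and 0.363). The other 5 genes stayed below 0 under both, and Dnmt3b and Tet2 kept their calls. Dnmt3l was at -0.090 with ribosomal protein scaling (edgeR adjusted p = 0.0389) and at -0.014 with mitochondrial scaling (edgeR adjusted p = 0.964). Tet3 was at -0.11 and -0.048 (edgeR adjusted p = 0.338 and 0.891), and Tet1 at -0.54 and -0.47 (edgeR adjusted p = 2.26e-09 and 0.0728). Of all genes called on day 2, 66.1% were higher with library totals, 33.9% with RLE, 90.2% with ribosomal protein scaling, 97.2% with mitochondrial scaling, against 47.6% under TMM.

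The change of Dnmt3l was larger on day 3 than on day 2, at a difference of -0.41 ± 0.07 (edgeR adjusted p = 0.000358), and that of Tet1 at a difference of -0.51 ± 0.12 (edgeR adjusted p = 0.0489). Of 19071 genes tested in this comparison 2.29% were lower and 2.54% higher. KO retained 70.0% of the WT mean of Dnmt3l on day 2 and 51.5% on day 3, and 51.1% and 35.1% for Tet1. Dnmt3l kept its call in all 15 alternative fits, and Tet1 lost it in 7, among them the fits without total WT replicate 1, total WT replicate 2, 0 h KO replicate 1, 0 h KO replicate 2 or 0 h WT replicate 2. Over all genes called in this comparison, 79.5% were higher with library totals, 34.4% with RLE, against 52.7% under TMM. The days differ also in the source label of the WT cells and in how reads were handled: the total libraries list 10341991 to 15515077 reads as aligned to several places, and all other libraries list 0.

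After actinomycin D, the share of the TET mRNAs in the mRNA pool went down and that of the DNMT and Uhrf1 mRNAs went up. CPM is a share of the RNA that is left, so a value above the 0 h level marks an mRNA lost more slowly than most, and slopes are log2 per hour relative to that pool. In KO, 5 of 8 genes had a positive slope and 3 a negative one by edgeR's test, where 31.6% of 15823 genes were positive and 36.3% negative. In WT, the same 5 were positive and 2 negative, where 35.0% of genes were positive and 38.8% negative. The Tet mRNAs were those with the negative values in both arms, with Tet2 in WT short of the threshold.

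**Figure D3:**
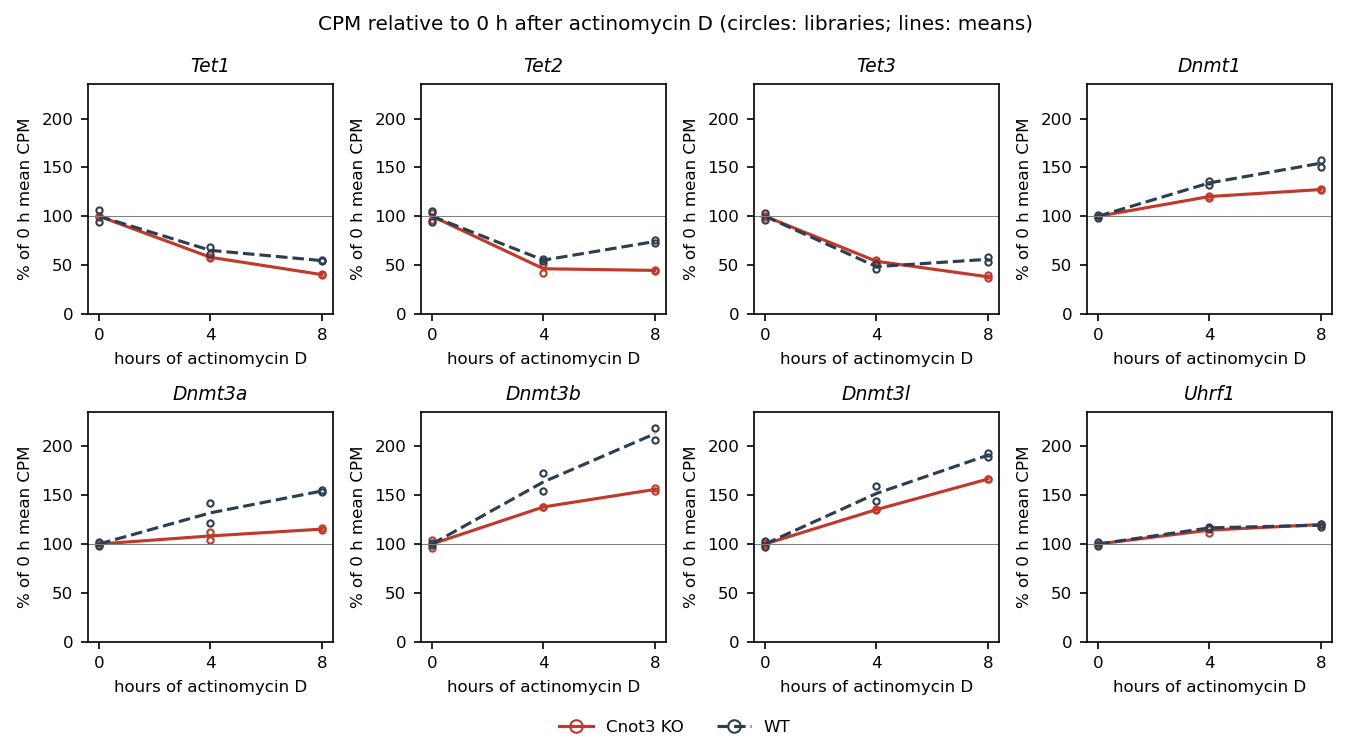
CPM of each gene as a percent of its 0 h mean in the same arm (y axes) after 0, 4 and 8 h of actinomycin D (x axes), with KO as solid and WT as dashed lines through the means and the libraries as circles. The 3 TET panels run below 100% and the 5 others above it, and KO ends below WT in all panels but that of Uhrf1. The share of all genes in which KO ends below WT was not computed.

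Tet1 went down through both intervals in both arms. In KO it averaged 351.7, 203.8 and 141.4 CPM at 0, 4 and 8 h, against 688.1, 447.6 and 375.3 CPM in WT, which left 40.2% of the 0 h mean at 8 h in KO and 54.5% in WT. Its slope was -0.16 ± 0.012 log2 per hour in KO and -0.11 ± 0.012 in WT (edgeR adjusted p = 3.62e-07 in KO and 2.9e-06 in WT). Among all genes, 19.6% had a lower slope than Tet1 in KO and 30.4% in WT, so its loss was not extreme in either arm.

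Tet2 had 71.1 and 76.7 CPM at 0 h, 37.6 and 30.7 CPM at 4 h and 33.4 and 32.4 CPM at 8 h in KO. In WT it had 178.0 and 158 CPM at 0 h, 93.9 and 91.2 CPM at 4 h and 127 and 122 CPM at 8 h. KO stood at 46.2% and 44.5% of the 0 h mean at 4 and 8 h, whereas WT stood at 55.0% and 74.1%, lower at 4 h than at 8 h. Its slope of -0.15 ± 0.04 in KO passed the test (edgeR adjusted p = 0.00949) and that of -0.05 ± 0.04 in WT did not (edgeR adjusted p = 0.223).

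Tet3 had 9.2 and 9.1 CPM at 0 h, 4.8 and 5.0 CPM at 4 h and 3.3 and 3.6 CPM at 8 h in KO, from 79 to 205 reads a library. In WT it had 13.8 and 12.8 CPM at 0 h, 6.1 and 6.7 CPM at 4 h and 7.1 and 7.8 CPM at 8 h. At 8 h, 38.0% of its 0 h mean was left in KO and 55.9% in WT, where 4 h stood at 48.4%. Its slope was -0.18 ± 0.03 in KO and -0.11 ± 0.03 in WT (edgeR adjusted p = 0.000205 in KO and 0.00303 in WT).

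Dnmt3b had 139 and 151 CPM at 0 h, 200.1 and 200.3 CPM at 4 h and 223.9 and 228.5 CPM at 8 h in KO. In WT it had 318.6 and 314.8 CPM at 0 h, 547.3 and 489.2 CPM at 4 h and 694.2 and 654.7 CPM at 8 h, which is 213.0% of the 0 h mean, against 155.9% in KO. Its slope was 0.080 ± 0.012 in KO and 0.14 ± 0.012 in WT, where 91.7% of all genes had a lower slope. Dnmt3l reached 166.5% of its 0 h mean in KO and 191.0% in WT, with slopes of 0.092 ± 0.010 in KO and 0.12 ± 0.010 in WT. At 8 h its KO libraries had 583.6 and 583.8 CPM, against 966.0 and 945.8 CPM in WT.

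Dnmt3a had 127.3 and 125.4 CPM at 0 h and 146.6 and 144.7 CPM at 8 h in KO, against 156 and 161.9 CPM at 0 h and 247.8 and 243.1 CPM at 8 h in WT. Its slope was 0.026 ± 0.0094 in KO and 0.078 ± 0.0094 in WT. Dnmt1 averaged 512.6 and 652.9 CPM at 0 and 8 h in KO, against 581.0 and 896.8 CPM in WT, with slopes of 0.044 ± 0.0091 in KO and 0.078 ± 0.0091 in WT. Uhrf1 averaged 257.1 and 308.4 CPM at 0 and 8 h in KO, against 304.1 and 362.7 CPM in WT, and its slopes of 0.033 ± 0.0079 in KO and 0.032 ± 0.0079 in WT left it at 119.9% in KO and 119.3% in WT. These 5 genes passed the slope test in both arms, with edgeR adjusted p between 2.77e-07 and 0.0276.

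**Figure D4:**
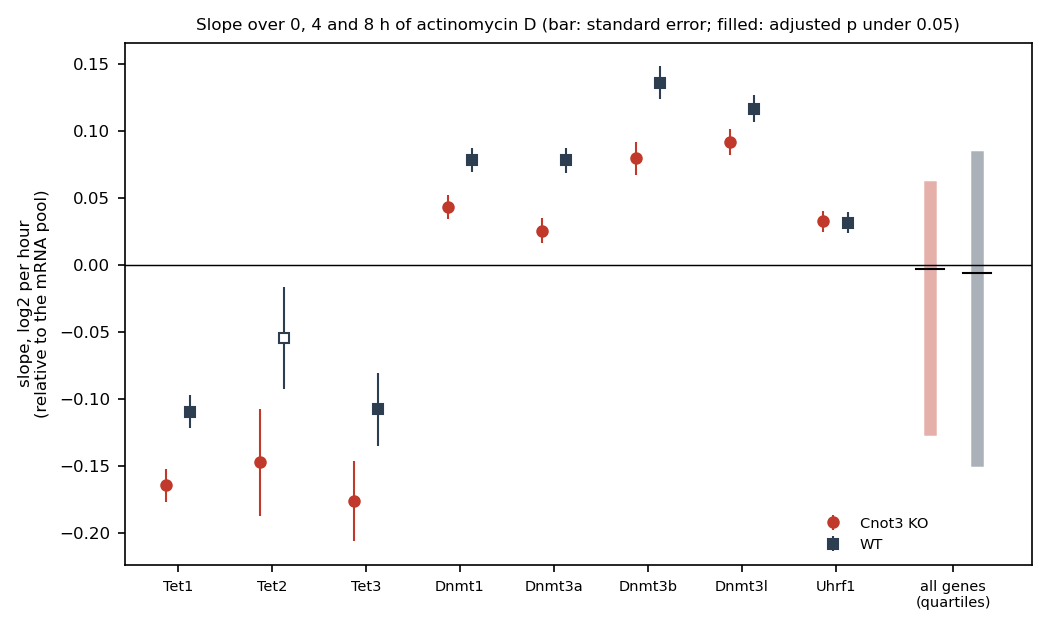
Slope of each gene over 0, 4 and 8 h of actinomycin D in log2 per hour relative to the mRNA pool (y axis), KO left of WT, with the standard error as a bar and filled symbols for an adjusted p under 0.05; at the right the bars span the quartiles of all 15823 genes and the lines mark their medians. In 7 of the 8 genes the KO slope is the lower one, and in Uhrf1 they are equal within their errors. Over all genes the median slope difference, KO minus WT, was -0.013, and 58.5% of genes had a lower difference than Uhrf1.

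Scaled to ribosomal protein mRNAs, which are long-lived, the median slope of all genes was -0.11 in KO and -0.15 in WT, and the 5 positive genes turned negative. Dnmt3b was then at -0.025 in KO and -0.0075 in WT, Dnmt3l at -0.013 and -0.027, Dnmt1 at -0.062 and -0.065, Dnmt3a at -0.080 and -0.066, and Uhrf1 at -0.073 in KO and -0.11 in WT. Of all genes called for the KO slope, 33.9% were higher with library totals, 52.0% with RLE, 0.365% with ribosomal protein scaling, 71.0% with mitochondrial scaling, against 46.6% under TMM. For the WT slope over all genes called, 32.8% were higher with library totals, 1.89% with ribosomal protein scaling, against 47.4% under TMM. The contrast between Tet1 and Dnmt1 is visible without any scaling in the ratio of reads within a library. Tet1 had 68.1 and 69.1 reads per 100 Dnmt1 reads at 0 h, 33.1 and 33.0 at 4 h and 21.4 and 21.9 at 8 h in KO. In WT it had 123 and 113 at 0 h, 53.6 and 61.4 at 4 h and 41.3 and 42.5 at 8 h. On day 3 the ratio was 43.8 and 51.7 in KO total RNA, against 108 and 110 in WT total RNA, and 58.5 and 53.8 in KO polysomes, against 115 and 113 in WT polysomes.

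**Figure D5:**
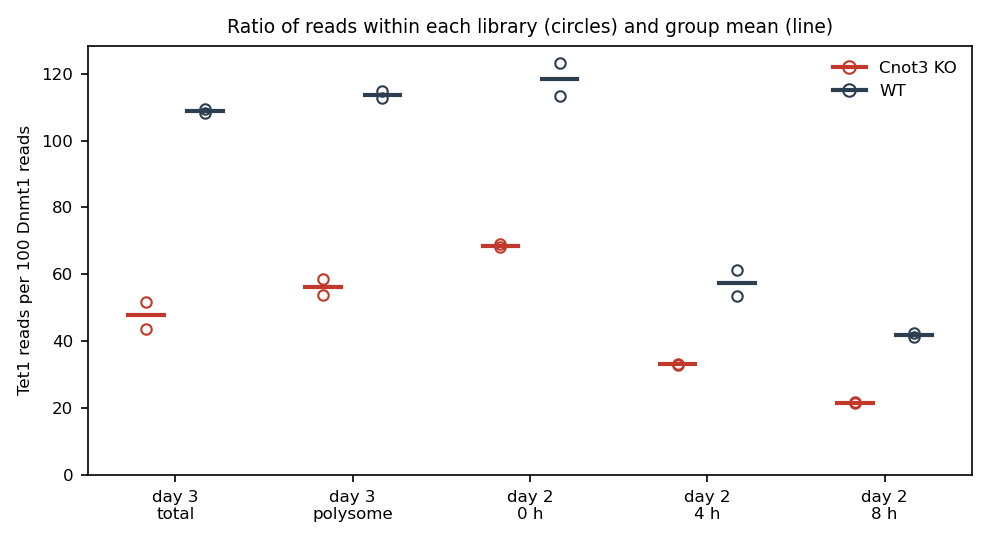
Tet1 reads per 100 Dnmt1 reads in each library (circles, y axis from 0) and group mean (lines), KO left of WT, on day 3 in total and polysome RNA and on day 2 after 0, 4 and 8 h of actinomycin D. KO libraries lie below WT libraries in all 5 settings, and both arms go down from 0 to 8 h, to 21.4 and 21.9 in KO and 41.3 and 42.5 in WT.

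The slopes were compared between the arms to learn whether deletion of Cnot3 changed the loss of these mRNAs. The slope was lower in KO for 3 of the 8, Tet1, Dnmt3a and Dnmt3b, and higher for none, where 8.78% of 15823 genes were lower and 10.2% higher. The difference was -0.053 ± 0.013 log2 per hour for Dnmt3a (edgeR adjusted p = 0.0154), -0.056 ± 0.017 for Dnmt3b (edgeR adjusted p = 0.0376) and -0.055 ± 0.017 for Tet1 (edgeR adjusted p = 0.0403). Tet2 at -0.093 ± 0.055 and Tet3 at -0.068 ± 0.041 had lower values still and did not pass (edgeR adjusted p = 0.295 and 0.276). Dnmt1 was at -0.035 ± 0.013, Dnmt3l at -0.025 ± 0.014 and Uhrf1 at 0.001 ± 0.011 (edgeR adjusted p = 0.0776, 0.255 and 0.968).

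These differences depended on the settings. Under RLE scaling 0 of the 8 were called, without 8 h KO replicate 1, 8 h KO replicate 2 or 0 h WT replicate 2 also 0, and without 0 h KO replicate 1, 0 h KO replicate 2, 0 h WT replicate 1 or 8 h WT replicate 1 it was 1. With 8 h set against 0 h and the 4 h libraries kept only for the spread, 7 were called, all but Uhrf1. Scaled to mitochondrial mRNAs, Tet1 was at 0.0019, Dnmt3a at 0.0041 and Dnmt3b at 0.0019. Of all genes called for the slope difference, 78.4% were higher with library totals, 75.3% with RLE, 93.6% with ribosomal protein scaling, 99.5% with mitochondrial scaling, against 53.8% under TMM. In Tet2 and Tet3 of WT the time course was not a straight line, being lower at 4 h than at 8 h, and the intervals were therefore also compared one by one, a choice made after the CPM values were seen.

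From 4 to 8 h, Tet3 differed by -0.70 ± 0.19 between KO and WT, Tet2 by -0.50 ± 0.10, Tet1 by -0.27 ± 0.07 and Dnmt3b by -0.20 ± 0.06 (log2; edgeR adjusted p = 0.00664, 0.000465, 0.00425 and 0.0135). These are 4 of 8 lower, where 11.3% of genes were lower and 11.1% higher. From 0 to 4 h the lower ones were Dnmt3a at -0.29 ± 0.07, Dnmt3b at -0.25 ± 0.06, Dnmt3l at -0.17 ± 0.06 and Dnmt1 at -0.16 ± 0.05 (edgeR adjusted p = 0.00199, 0.00282, 0.0236 and 0.0153), where 13.1% of genes were lower and 13.5% higher. The TET genes stood at -0.23 ± 0.09 for Tet2, -0.17 ± 0.07 for Tet1 and 0.15 ± 0.17 for Tet3 in that interval (edgeR adjusted p = 0.0713, 0.0666 and 0.591). Under RLE scaling and by DESeq2 0 of the 8 were called from 0 to 4 h, and 4 to 8 h gave 5 by either. From 0 to 4 h, over all genes called, 75% were higher with library totals, 86.0% with RLE, 95.5% with ribosomal protein scaling, 100% with mitochondrial scaling, against 50.7% under TMM. From 4 to 8 h, over all genes called, 62.7% were higher with library totals, 34.8% with RLE, 74.2% with ribosomal protein scaling, 64.7% with mitochondrial scaling, against 49.6% under TMM. The 2 intervals share the 4 h libraries, so an error there moves them in opposite directions, and whether a gene's intervals differ from each other was not tested.

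Among other genes of DNA methylation, some rose and some fell. Among 12 genes that target or protect methylation, 4 fell and 1 rose in KO total RNA and 6 fell and 1 rose in polysomes. Over all genes tested, 12.2% fell and 16.0% rose in total RNA, and 21.1% fell and 15.9% rose in polysomes. Fewer of the 12 fell in total RNA without any 1 of the 4 total libraries. The number was 9 without both WT polysome libraries and 10 with only the 4 libraries compared. The share of all genes called in these fits is not given here. In polysomes 10 fell without polysome WT replicate 2. Prdm14, a repressor of de novo methyltransferase genes in ESCs, changed by -1.04 ± 0.14 in total RNA (edgeR adjusted p = 0.000818) and -1.69 ± 0.15 in polysomes. Zfp57, a zinc finger protein that guards imprinted methylation, changed by -1.20 ± 0.30 in total RNA (edgeR adjusted p = 0.0151) and -2.09 ± 0.31 in polysomes. Zfp57 had 103 and 112 CPM in KO total libraries, against 248 and 247 CPM in WT. In polysomes it had 83.4 and 103 CPM in KO, against 240.6 and 554.3 CPM in WT, and without polysome WT replicate 2 its log2 change was -1.36 (edgeR adjusted p = 6.82e-06). Kdm1b, a histone demethylase needed for maternal imprints in oocytes, was the gene of this list that rose, by 0.56 ± 0.13 in total RNA (edgeR adjusted p = 0.0107). On day 2, 10 of the 12 fell and 1 rose, where 32.9% of all genes fell and 29.8% rose. Scaled to ribosomal protein mRNAs, 5 fell and 7 rose on day 2, and scaled to mitochondrial mRNAs, 1 fell and 1 rose.

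None of 7 maintenance and replication partners passed in total RNA or polysomes by edgeR, whereas on day 2, 4 fell and 2 rose, with Pcna, the replication clamp, at -0.30 ± 0.05 and Uhrf2, the paralog of Uhrf1, at 0.24 ± 0.05 (edgeR adjusted p = 1.39e-06 and 9.17e-05). At an unadjusted p under 0.05, 0 passed in total RNA and 1 in polysomes, and DESeq2 called 0 in either. In total RNA 5 of the 7 fell and 2 rose with only the 4 libraries compared, and 5 fell and 1 rose without both WT polysome libraries. With library totals 2 rose. In polysomes 4 fell without polysome WT replicate 2. On day 2, 7 rose and 0 fell when scaled to ribosomal protein mRNAs, with Pcna at 0.12, 2 rose and 0 fell when scaled to mitochondrial mRNAs, with Pcna at 0.18, and 3 rose and 1 fell with library totals. The shares over all genes in the main fits were 12.2% lower and 16.0% higher in total RNA. They were 21.1% and 15.9% in polysomes and 32.9% and 29.8% on day 2. For the fits with fewer libraries the share of all genes is not given here, so those counts cannot be set against it.

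Of 8 methyl-CpG readers, Mbd3 fell by 0.91 ± 0.16 on the log2 scale and Zbtb4 was at 0.93 ± 0.28 in total RNA (edgeR adjusted p = 0.00283 and 0.0309). Of 15 genes of base repair, 2 rose and 2 fell in total RNA, near the 16.0% higher and 12.2% lower of all genes. With library totals 6 rose and 0 fell. Xrcc1, a scaffold of single-strand break repair, rose by 0.61 ± 0.15 (edgeR adjusted p = 0.014), and Parp1 fell by 0.73 ± 0.21 (edgeR adjusted p = 0.0269). Tdg, the glycosylase that removes oxidised methylcytosine, stood at -0.69 ± 0.20 (edgeR adjusted p = 0.0264). Tdg has near-identical copies in the genome, and its level was 23.6 to 40.9 CPM in total libraries but 1.32 to 4.01 CPM in all others, so its value is uncertain. Of 9 TET partners and cofactor genes 3 fell in total RNA, among them Rybp at -0.75 ± 0.19 and Hcfc1 at -0.54 ± 0.15 (edgeR adjusted p = 0.0144 and 0.0239). Of 10 methyl donor genes 1 fell, Mat2a, which makes S-adenosylmethionine, at -0.61 ± 0.16 (edgeR adjusted p = 0.0205). With library totals 0 of the 9 TET partners and cofactor genes fell and 1 rose. Among the methyl donor genes 4 fell by DESeq2, 5 fell with only the 4 libraries compared, and with library totals 0 fell and 1 rose. The base repair, TET partner and methyl donor lists had 0 calls in total RNA without any 1 of the 4 total libraries. The calls on Zfp57, Kdm1b, Zbtb4, Xrcc1, Parp1, Tdg, Rybp, Hcfc1 and Mat2a in total RNA were likewise lost without any 1 of these, whereas Prdm14 and Mbd3 kept theirs without any 1 of the 8 total and polysome libraries.

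Of 17 germline genes that are known to be silenced by promoter methylation, some rose in KO and others did not pass the test. In total RNA 9 of the 17 rose and none fell, where 16.0% of all genes rose. In polysomes 10 rose and none fell, where 15.9% of all genes rose. On day 2, 13 rose and 1 fell, Mael, at -0.32 ± 0.085 (edgeR adjusted p = 0.00112), where 29.8% of all genes rose. Mael and Rpl10l were at -0.19 and -0.48 in total RNA (edgeR adjusted p = 0.32 and 0.0972). With library totals, ribosomal protein scaling or mitochondrial scaling, 0 fell on day 2, and with RLE scaling or DESeq2 2 fell. In total RNA 2 fell with only the 4 libraries compared, and 1 fell with no filter, with the replicate block or without WT polysome libraries. The median log2 change was 0.51 in total RNA, 0.75 in polysomes and 0.69 on day 2, against 0.01, -0.08 and -0.01 over all genes. Taf7l, a germ cell paralog of a TFIID subunit, had 17.3 and 17.8 CPM in KO total libraries, against 4.46 and 4.02 CPM in WT (log2 change 2.05 ± 0.23, edgeR adjusted p = 0.000344). Ddx4, a germ cell RNA helicase, had 28.1 and 31.6 CPM in KO, against 14.1 and 13.1 CPM in WT (log2 change 1.14 ± 0.15, edgeR adjusted p = 0.000591). Brdt, a testis bromodomain protein, had 5.02 and 5.33 CPM in KO, against 1.51 and 1.81 CPM in WT. All 17 together summed to 307.9 to 315.2 CPM in KO total libraries and 241.9 to 245.6 CPM in WT. After actinomycin D their slope differed between the arms for 1 gene, Asz1, at 0.15 ± 0.05 (edgeR adjusted p = 0.0361). Over all genes tested, 10.2% had a higher slope in KO and 8.78% a lower one, so this count does not set the 17 apart. Across the alternative fits 6 to 13 rose in total RNA, 8 to 13 in polysomes and 9 to 16 on day 2. The 6 was found without total WT replicate 1, total KO replicate 1 or total KO replicate 2. DNA methylation itself was not measured.

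The genes most like each enzyme were found by Pearson's r of mean log2 CPM over the 10 groups, centred within total, polysome and actinomycin D libraries, among 9748 genes. The points share libraries and scaling, so these r are descriptions. Tet1 was closest to Slfn9, Sox12 and Zfp219 (r of 0.994, 0.992 and 0.991) and Tet2 to Ric8b, Zfp445 and Zfp978 (0.991, 0.990 and 0.990). Among the genes closest to Tet3 were Zfp81 and Zfp518b (0.992 and 0.991). Dnmt3b was closest to Igf2bp3, Emp1 and L3mbtl2 (0.996, 0.995 and 0.993), and Dnmt3l to Sod2, Hsd17b14 and the ESC gene Dppa5a (0.998, 0.997 and 0.995). Dnmt1 was closest to Trappc2l, Mtx3 and Ddost (0.998, 0.997 and 0.997), Dnmt3a to Slc25a22, Mapk8ip1 and Oaz2 (0.998 each), and Uhrf1 to Upp1, Hps3 and Dcaf15 (0.997, 0.996 and 0.995). None of the 8 enzymes was among the closest 3 of another. Counts of Slfn9 and the zinc finger genes, which belong to multigene families, may share reads with paralogs.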

How the data were processed

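RNA-seq counts per gene were deposited for 20 libraries. The deposited counts are whole reads per Ensembl gene ID. Per the submitters' processing notes, reads were aligned with STAR 2.3.0e to mm9 and counted with HTSeq, of a version that these notes leave out. The 5 HTSeq tally lines, which name no gene, stayed out of library sizes. Reads outside genes, as a percent of all reads tallied except those aligned to several places, were 19.8% to 23.7% of the total libraries, 4.75% to 12.9% of the polysome libraries and 5.26% to 8.12% of the actinomycin D libraries. Symbols (32938 of 37991 IDs), exons and 3′UTRs came from GENCODE M21 on GRCm38.

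One fit held the 8 total and polysome libraries, another the 12 actinomycin D libraries, and a further one the total and 0 h libraries. edgeR 4.0.16 (R 4.3.3) was run with TMM factors, low counts removed by filterByExpr (minimum 10), and the robust quasi-likelihood test, with p-values adjusted by Benjamini-Hochberg over all genes and a threshold of 0.05. The code was checked on simulated data. Members and gene lists were chosen with earlier results of these data known. Named genes are the 8 members, up to 4 per list with the smallest adjusted p, and the 3 most correlated genes (log2 of CPM + 0.5, for genes whose mean CPM has a log2 of at least 3). Of the correlated genes, 1 is not reported here. Alternatives were RLE scaling, library totals, ribosomal protein and mitochondrial scaling, other filters, DESeq2 1.42.0, a replicate block, fewer libraries and each library left out. The 2 replicates limit precision. Figures used matplotlib 3.10.9.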

Additional observations from a re-analysis of the deposited data

Results flagged for a closer look

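Each result here was singled out because KO and WT differed in their slope or in their change over an interval after actinomycin D, or the KO change differed between days, by a test of that difference, edgeR's quasi-likelihood test over all genes. The KO slope after actinomycin D differed from the WT slope by -0.055 log2 per hour for Tet1, -0.053 for Dnmt3a and -0.056 for Dnmt3b. From 0 to 4 h the KO change differed from the WT change by -0.16 for Dnmt1, -0.29 for Dnmt3a, -0.25 for Dnmt3b and -0.17 for Dnmt3l on the log2 scale. From 4 to 8 h it differed by -0.27 for Tet1, -0.50 for Tet2, -0.70 for Tet3 and -0.20 for Dnmt3b. The KO change on day 3 minus that on day 2 was -0.51 for Tet1 and -0.41 for Dnmt3l. The causes were not tested. With 2 libraries a group, single libraries were not screened for outlying values.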

How the results depend on the processing

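The 80 values of the 8 enzymes were recomputed 1544 times under alternatives, of which 1312 kept direction and side of the threshold, 109 lost the call and 49 gained one in the same direction, and 74 changed sign, 47 of these with no call in either fit. In total RNA, where 4 enzymes were called, DESeq2 called 7, and 8 were called with only the 4 libraries compared or without WT polysome libraries. Both of these settings also added calls among the other DNA methylation genes. Leaving out 1 library gave 4 to 8. In polysomes, where 6 were called, library totals gave 3, only the 4 libraries compared gave 2, and leaving out 1 library gave 2 to 8. Polysome association gave 0 to 1 when 1 library was left out. On day 2, where 8 were called, scaling to mitochondrial mRNAs gave 2. From 0 to 4 h, where 4 were called, RLE scaling, DESeq2 and mitochondrial scaling gave 0, and library totals and no filter gave 2. Ribosomal protein scaling gave 1, which was Uhrf1, higher in KO and not one of the 4. Leaving out 1 library moved the difference over -0.18 to -0.13 for Dnmt1 and -0.39 to -0.17 for Dnmt3a. It moved it over -0.32 to -0.16 for Dnmt3b and -0.23 to -0.089 for Dnmt3l. From 4 to 8 h, where 4 were called, ribosomal protein scaling gave 2, mitochondrial scaling gave 0 and leaving out 1 library gave 3 to 6. The slope difference was called for 3, and for 0 under RLE and mitochondrial scaling. It was called for 1 with library totals, DESeq2, the replicate block or ribosomal protein scaling, and for 7 with 8 h set against 0 h. These counts take calls of any of the 8 genes in either direction. Uhrf1, not among the 3, was called in 1 of 22 settings, with the higher slope in KO. Leaving out 1 library moved the difference over -0.070 to -0.047 for Tet1, -0.057 to -0.046 for Dnmt3a and -0.067 to -0.049 for Dnmt3b. Between day 3 and day 2, 2 were called, 4 with no filter, 1 with at least 1 CPM in 2 libraries, 1 with the replicate block and 1 to 3 when 1 library was left out. The causes were not tested.

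The signs of called values changed as follows. With library totals, the WT slope of Uhrf1 was -0.010. Scaled to ribosomal protein mRNAs, the day 2 change was 0.24 for Dnmt1, 0.092 for Dnmt3a and 0.18 for Uhrf1, and the 0 to 4 h difference was 0.048 for Dnmt1, 0.042 for Dnmt3l and 0.18 for Uhrf1. Under the same scaling the KO slopes were -0.062 for Dnmt1, -0.080 for Dnmt3a, -0.025 for Dnmt3b, -0.013 for Dnmt3l and -0.073 for Uhrf1. The WT slopes were then -0.065 for Dnmt1, -0.066 for Dnmt3a, -0.0075 for Dnmt3b, -0.027 for Dnmt3l and -0.11 for Uhrf1. Scaled to mitochondrial mRNAs, the day 2 change was 0.32 for Dnmt1, 0.17 for Dnmt3a and 0.25 for Uhrf1. The 0 to 4 h difference was 0.21 for Dnmt1, 0.068 for Dnmt3a, 0.13 for Dnmt3b and 0.19 for Dnmt3l. The slope difference was 0.0019 for Tet1, 0.0041 for Dnmt3a and 0.0019 for Dnmt3b. Of the 47 values with no call, 10 were the polysome association of Uhrf1, 9 that of Tet1, and 6 the 0 to 4 h difference of Uhrf1. Among the others, the 0 to 4 h difference reached 0.21 for Tet1 and 0.13 for Tet2, the 4 to 8 h difference 0.067 for Dnmt3l, and the slope difference 0.022 for Dnmt1 and 0.032 for Dnmt3l. Polysome association reached 0.28 for Tet1, 0.14 for Tet3 and -0.11 for Dnmt3a.

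Whether replicate numbers pair the samples was checked by the correlation of KO and WT deviations from their group means, which was 0.34 in total RNA, 0.29 in polysomes, and 0.078, -0.029 and 0.061 at 0, 4 and 8 h. Between total and polysome RNA it was 0.29 in KO and -0.066 in WT. On day 3, 3 of the 4 correlations were thus above 0.1, and on day 2 none was, so whether the numbers pair the samples was not settled, and the block was kept as an alternative. With 2 libraries a group, Tet3, at 79 to 384 reads a library, had the least depth of the 8.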
